A study of Homo sapiens with 18 samples.

Results

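The transcriptional response of MDA-MB-231 cells to the BET inhibitor OTX015 was described from 9 of the 18 arrays of the series, the 3 arrays of OTX015-treated cells (4, 8 and 24 h) and the 6 control arrays of the same times. The controls were 3 arrays of untreated cells and 3 of cells given DMSO, the solvent of the drug, and they were pooled with the time point as a block, which leaves 5 residual degrees of freedom. MDA-MB-231 is an established triple-negative breast cancer line with a mesenchymal phenotype, and the methods of the study give an OTX015 concentration of 75 nM for it. The other 9 arrays are of MDA-MB-468, another triple-negative line, which received 650 nM over the same times. There was 1 array per line, treatment and time, and nothing in the labels says whether the time points came from separate cultures, so a p-value here covers the spread from array to array and nothing wider.

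BET proteins, among them BRD2, BRD3 and, in the testis, BRDT, hold on to acetylated lysines of histone tails through their bromodomains and bring the elongation kinase P-TEFb to promoters and enhancers. OTX015 occupies the acetyl-lysine pocket and displaces them from chromatin. In many cell types compounds of this class are known for lowering MYC and inflammatory transcripts and for raising histone genes and HEXIM1, which encodes an inhibitor of P-TEFb.

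RNA was hybridized on Illumina HumanHT-12 v4 bead arrays with 47231 probes. Intensities were background-corrected, quantile-normalized and log2-transformed. Testing covered the 20217 probes that exceeded a signal floor on 3 or more of the 9 arrays, of which 15174 carry 1 gene symbol, for 11400 genes. Only 9 tested probes passed the floor with 0 control arrays above it. The mean raw intensity of the 9 arrays ran from 315.5 to 409.4, 17651 to 19754 probes per array were above the floor, and the correlation between arrays lay between 0.991 and 0.997. Log2 fold changes had a median standard error of 0.0664, and precision is limited by the number of arrays. Of 7 mesenchymal markers, VIM, MSN, CD44, AXL and ZEB1 were above the floor on all 9 arrays and FN1 and SPARC on none. Of 18 epithelial, basal and receptor genes, 9 were above it on all 9 arrays and 7 on none. The 9 were KRT8, KRT18, KRT19, EPCAM, CLDN7, SPDEF, ELF3, EGFR and ERBB2. The 7 included CDH1, ESR1, PGR, KRT5 and KRT14. The log2 of the summed intensity of the mesenchymal markers was 14.34 to 14.39 in the controls and 14.37 to 14.40 with OTX015. For the epithelial genes it was 12.57 to 12.67 and 12.47 to 12.79. Such a sum follows the brightest members, here VIM with a mean of 13.42, and dim ones weigh little. ZEB1, a dim marker, had a log2 fold change of -0.26 (adjusted p = 0.0155 with limma), with all 3 OTX015 arrays below every control. VIM, MSN, CD44 and AXL lay between -0.02 and 0.04. In a bulk sample, fewer cells of a type and less RNA per cell cannot be told apart.

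With OTX015, 57 probes rose (0.282% of those tested) and 43 fell (0.213%), or 100 probes in all (0.495%). The thresholds were 0.05 for the adjusted p and 0.5 for the absolute log2 fold change, and the words rose and fell are kept for probes that passed both. The called probes carry the symbols of 41 genes that rose and 35 that fell, and 16 have no symbol here. The changes were small: the median rise was 0.63 on the log2 scale (1.55-fold), the median fall was -0.58, 5 probes rose by at least 1, and 0 fell by as much. By adjusted p alone 1474 probes passed (7.29%), 747 upward and 727 downward, so the fold minimum set the count more than the p-value did. Probes just inside that minimum were LYPD1 (-0.503) and RSRP1 (0.504), and just outside were TIMP3 (-0.4996) and CEP19 (0.497).

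**Figure D1:**
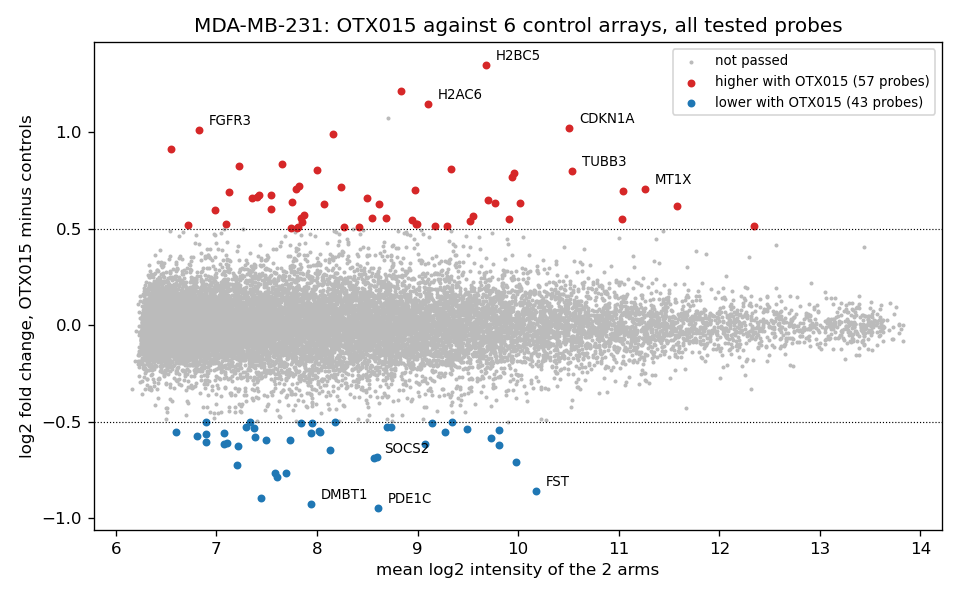
Log2 fold change of OTX015 against the 6 control arrays (vertical axis) by mean log2 intensity (horizontal axis) for all 20217 tested probes of MDA-MB-231. Red points are the 57 probes that rose, blue points the 43 that fell, grey points did not pass, and dotted lines mark a log2 fold change of 0.5 in each direction. The highest red point, H2BC5, lies at 1.35 and the lowest blue point, PDE1C, at -0.95.

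All 3 OTX015 arrays lay above all 6 controls for 48 of the 57 probes that rose, against 3.78% of all tested probes, and below them for 39 of the 43 that fell, against 4.33%. Of the 100 called probes, 98 differed in the same direction at all 3 times and 94 were above the floor on all 9 arrays. The probes were chosen by their change on these same 9 arrays, so the separation and the shared direction are no added support. The size of the counts depended on 1 library: without the OTX015 array of 4 h, 95 probes rose and 83 fell. It also depended on the scaling, since the share of higher probes among the calls was 57.0% here, 83.7% after scaling each array to its median, which shifts the median of all probes by 0.0545, and 68.5% in the log2 table deposited by the authors.

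Histone genes of the chromosomal clusters were the list with the most members that rose. They encode the core histones H2A, H2B, H3 and H4 and the linker histone H1, and most of their transcripts are made in S phase and end in a stem-loop in place of a poly(A) tail. The labelling kit named by the submitters amplifies from poly(A) tails, so the probes read the polyadenylated part of these transcripts. Of 69 clustered histone genes on the array, 28 were tested and 41 did not pass the signal floor. Of the 28, 10 rose and 0 fell, against 0.351% of all tested genes that rose and 0.272% that fell (1 probe per gene), and 16 passed upward by adjusted p alone, against 4.56%. The median log2 fold change of the 28 was 0.28, against -0.0004 over all 11400 genes, and all 3 OTX015 arrays lay above the controls for 17 of them, against 4.39% of all genes.

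The promoters of histone genes carry short elements known from work on S-phase transcription, CCAAT boxes bound by NF-Y, an octamer bound by OCT1 (mainly in H2B genes) and TATA boxes. The promoters of 4 genes that rose are shown because they span the range found, from all 3 elements to none. Each sequence is the 160 bases before the transcription start (RefSeq, GRCh38.p14), and capitals mark CCAAT, the octamer ATTTGCAT and TATAAA on either strand.
H2BC5 (chr6:26157961-26158120, plus strand): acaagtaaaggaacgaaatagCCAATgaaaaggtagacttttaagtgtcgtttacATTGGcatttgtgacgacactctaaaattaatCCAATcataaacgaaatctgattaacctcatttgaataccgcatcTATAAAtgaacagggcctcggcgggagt
H2AC6 (chr6:26124012-26124171, plus strand): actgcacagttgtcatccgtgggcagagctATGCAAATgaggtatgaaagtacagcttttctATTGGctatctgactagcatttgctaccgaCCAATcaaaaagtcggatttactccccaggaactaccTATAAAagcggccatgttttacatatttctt
H2BC21 (chr1:149886683-149886842, minus strand): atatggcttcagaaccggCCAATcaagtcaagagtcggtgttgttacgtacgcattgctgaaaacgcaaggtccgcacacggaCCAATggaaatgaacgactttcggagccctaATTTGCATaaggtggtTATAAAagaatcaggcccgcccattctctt
H4C8 (chr6:26285535-26285694, minus strand): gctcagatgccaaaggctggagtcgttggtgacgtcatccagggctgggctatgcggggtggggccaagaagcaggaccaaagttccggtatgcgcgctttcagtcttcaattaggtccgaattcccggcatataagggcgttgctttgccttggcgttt
H2BC5 holds 3 CCAAT boxes and a TATA box but no octamer, H2AC6 and H2BC21 hold all 3 elements, and H4C8 holds none of them in this window. In the 250 bases before the start, on both strands, the octamer was present in 1.66% of 27305 promoters and in 10 of the 27 tested histone genes with an entry, 5 of the 10 that rose and 5 of the 17 that did not pass. CCAAT was present in 33.0% of all promoters and in 9 of the 10 and 13 of the 17, and TATAAA in 11.1% of all promoters and in 8 of the 10 and 13 of the 17. Histone promoters that did not pass thus also held CCAAT and TATAAA in most cases. A match of letters is a description and not a site of binding.

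H2BC5 (formerly HIST1H2BD), which encodes an H2B protein, had the largest rise of all probes. Its log2 intensity was 10.12, 10.53 and 10.42 with OTX015 at 4, 8 and 24 h, against 8.87 to 9.22 (median 8.99) on the control arrays. The groups were far apart, with a log2 fold change of 1.35 ± 0.086 (SE), or 2.55-fold, and an adjusted p of 2.01e-07. H2AC6 (HIST1H2AC), an H2A gene, read 9.35, 9.91 and 9.76 against 8.45 to 8.69 (median 8.50), a log2 fold change of 1.14 ± 0.083 (adjusted p = 3.29e-07). The 4 h array was the lowest of the 3 for both genes, but each time had 1 OTX015 array, and the difference in response between 24 h and 4 h did not pass for H2BC5 (adjusted p = 0.341) or H2AC6 (adjusted p = 0.43).

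H4C8 (HIST1H4H), an H4 gene, read 8.01, 8.10 and 8.11 on the log2 scale with OTX015 against 7.16 to 7.30 (median 7.23), a log2 fold change of 0.83 ± 0.060 (adjusted p = 3.29e-07). H2BC21 (HIST2H2BE) read 7.54, 7.65 and 7.71 against 6.73 to 6.89 (median 6.81), a log2 fold change of 0.83 ± 0.065 (adjusted p = 6.85e-07). In both, the 3 OTX015 arrays differed among themselves by less than their distance to the controls. H2AC18 read 9.65, 9.83 and 9.74 against a wider control range of 8.49 to 9.23 (median 9.01), a log2 fold change of 0.81 ± 0.094 (adjusted p = 4.47e-05). Its OTX015 arrays were level, and the response was 0.43 at 4 h and 1.18 at 24 h, where the controls were lower. H2AC18 and its neighbour H2AC19 are near-identical copies, so their probes can share signal and cannot be assigned to one gene with certainty.

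H2BC12 (HIST1H2BK) rose on both of its tested probes, by 0.79 ± 0.063 and, on the brighter, by 0.62 ± 0.068, and H2BC11 (HIST1H2BJ) rose by 0.66 ± 0.063 (adjusted p = 5.32e-06). Further members, named after their values were seen, were H2AC19 (log2 fold change 0.70), H2AC20 (0.56) and the linker histone gene H1-2 (0.54), all 3 with OTX015 arrays above every control. H2BC4 (0.49) and H4C14 (0.47) passed by adjusted p and missed the fold minimum. By type, 4 of 7 H2A genes and 4 of 6 H2B genes rose, with median log2 fold changes of 0.56 and 0.64, as did 1 of 2 H1 genes and 1 of 6 H4 genes (median 0.21). None of 7 H3 genes rose (0 called, median 0.18, range -0.06 to 0.22). The count of clustered histone genes that rose was 8 without the OTX015 array of 24 h and 12 without that of 4 h. The replication-independent variant histones had 0 of 11 genes called in either direction, against 0.351% of all genes that rose and 0.272% that fell. Their median was 0.15. By adjusted p alone the linker variant H1-10 (0.46, the highest), H2AJ (0.28) and H3-5 (0.22) passed upward, against 4.56% of all genes. All 3 OTX015 arrays lay above every control for each of them.

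**Figure D2:**
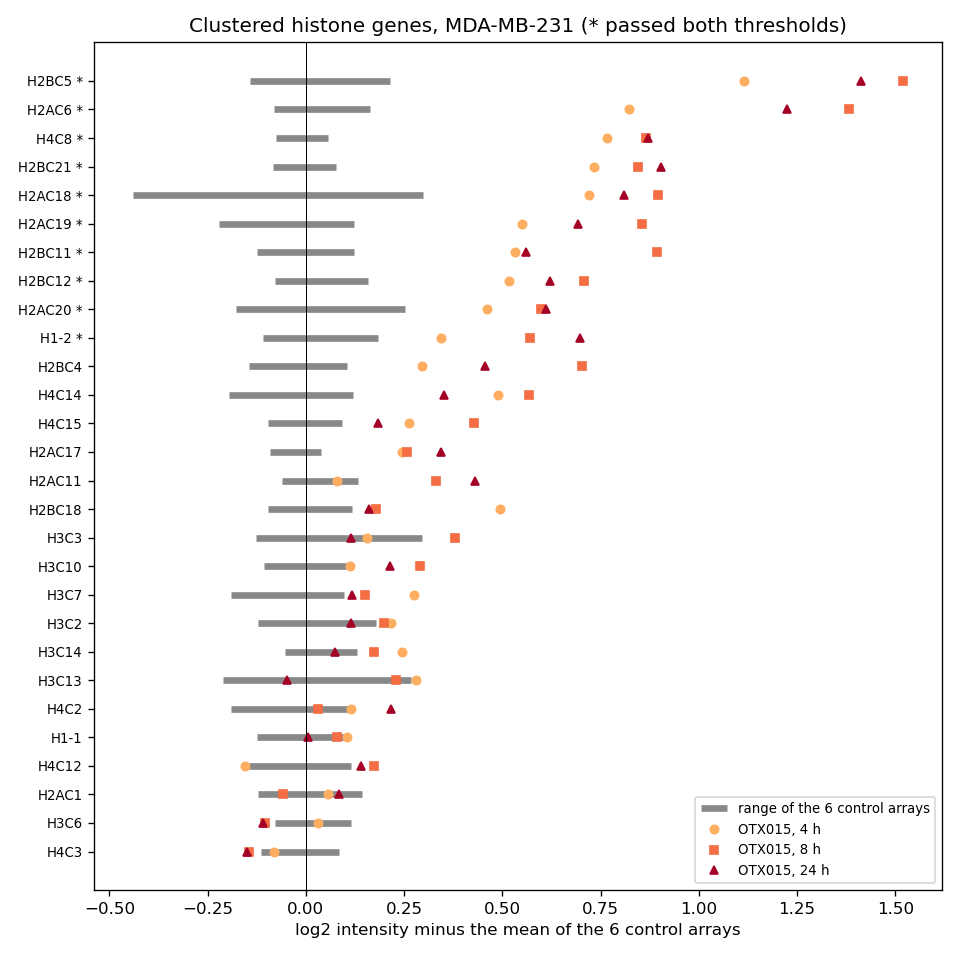
The 28 tested clustered histone genes in MDA-MB-231, each as log2 intensity minus the mean of the 6 control arrays (horizontal axis). Grey bars span the control arrays, circles, squares and triangles are the OTX015 arrays of 4, 8 and 24 h, and asterisks mark the 10 genes that rose, from H1-2 at 0.54 to H2BC5 at 1.35.

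Among cell cycle regulators the leading change was CDKN1A, the gene of p21, an inhibitor of cyclin-dependent kinases. It read 11.17, 11.14 and 10.73 on the log2 scale with OTX015 against 9.84 to 10.10 (median 10.01) on the controls, a log2 fold change of 1.02 ± 0.084, or 2.03-fold (adjusted p = 1.03e-06). The response was 1.21 at 4 h, 1.13 at 8 h and 0.72 at 24 h, although the difference between 24 h and 4 h did not pass. The other CDK inhibitors tested, CDKN1B (0.16) and CDKN2D (-0.21), did not pass. SERTAD1, which encodes a CDK4-binding transcriptional cofactor, rose by 0.57 ± 0.080 (adjusted p = 0.000336). It read 10.23, 9.88 and 9.40 against 8.99 to 9.45, so the array of 24 h lay within the control range, and without the OTX015 array of 4 h its log2 fold change was 0.41.

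Lists of genes that drive the cell cycle gave 0 calls. Over all genes 0.351% rose and 0.272% fell, so 0 calls in lists of this size lies near that share. Of 21 G1/S cyclins, kinases and E2F genes, 0 rose and 0 fell, with a median of -0.08, and CDK6 (-0.39), E2F2 (-0.36) and E2F5 (-0.22) passed downward by adjusted p alone. Of 42 mitosis genes, 0 passed both thresholds and 33 had a negative log2 fold change. Their median was -0.12, against -0.002 over all tested probes. CDCA8 (-0.32), the proliferation marker MKI67 (-0.30), CENPF (-0.27) and AURKA (-0.27) passed downward by adjusted p. Of 40 DNA replication genes 0 were called (median -0.04), and MCM2 (-0.32) and MCM5 (-0.27), subunits of the replicative helicase, were the lowest of the 4 that passed downward by adjusted p. By adjusted p alone, 4.66% of all genes passed downward. These members were named after their values were seen.

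MYC, the transcription factor most often linked to BET inhibition, did not pass. Its log2 intensity was 11.16, 11.02 and 11.29 with OTX015 against 10.99 to 11.25 (median 11.07), and the arrays of 4 and 8 h lay within the control range, with a log2 fold change of 0.07 ± 0.062 (adjusted p = 0.565). Of its partners and antagonists, MXD4 (0.40) and MXD1 (0.25), which compete with MYC for MAX, passed upward by adjusted p alone. Of 47 genes of ribosome biogenesis and other MYC targets, 0 were called, which lies near the 0.351% of all genes that rose and 0.272% that fell. Of these 47, 37 had a negative log2 fold change, where the median of all tested probes was -0.002. By adjusted p alone 7 passed downward, against 4.66% of all genes. The lowest were CCDC86 (-0.49), MRTO4 (-0.39), NOP16 (-0.37) and RRS1 (-0.36), of which MRTO4 and RRS1 are assembly factors of the large ribosomal subunit. The median of these 47 genes was -0.07 at 4 h, -0.10 at 8 h and -0.22 at 24 h, and over all times it was -0.12, or -0.03 with arrays scaled to their medians. Structural ribosomal genes differed from controls by less, with medians of -0.02 over 70 cytosolic and -0.07 over 78 mitochondrial members, the latter 0.02 under median scaling.

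Of the BET genes tested, BRD2 rose. It read 11.33, 11.36 and 11.23 on the log2 scale with OTX015 against 10.70 to 10.87 (median 10.72), a log2 fold change of 0.55 ± 0.064 (adjusted p = 4.41e-05), with the groups apart. BRD3 had a log2 fold change of -0.07 (adjusted p = 0.672), and BRDT did not pass the signal floor. HEXIM1, singled out here as a common marker of BET inhibition, had a log2 fold change of 0.09 (adjusted p = 0.48). It read 6.68, 6.59 and 6.52 with OTX015 against 6.44 to 6.58 on the controls, close to the floor of the OTX015 arrays (6.33 to 6.42). It was above the floor on all 3 OTX015 arrays and all 6 controls, and whether the low level masked a change was not tested. In the elongation control list of 15 genes the only call was SERTAD1, the CDK4-binding cofactor described above, against 0.351% of all genes that rose. The other members, among them CDK9, the kinase of P-TEFb (log2 fold change 0.16), were not called.

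Metallothioneins, small cysteine-rich proteins that bind zinc and copper, rose in 3 of 5 tested members, with 0 falling and a median of 0.51, against 0.351% of all genes that rose. MT1X read 11.55, 11.64 and 11.64 on the log2 scale with OTX015 against 10.69 to 11.04 (median 10.98), a log2 fold change of 0.71 ± 0.072 (adjusted p = 9.83e-06). MT1G read 8.11, 8.35 and 8.68 against 7.59 to 7.89, a log2 fold change of 0.63 ± 0.098 (adjusted p = 0.000701). MT1E read 12.53, 12.60 and 12.66 against 11.99 to 12.20, a log2 fold change of 0.51 ± 0.065 (adjusted p = 0.000112). The groups were apart for all 3, and MT2A (0.41) passed by adjusted p alone while MT1F (-0.05) did not. The median response of the 5 genes was 0.32 at 4 h, 0.52 at 8 h and 0.63 at 24 h. Without the OTX015 array of 24 h only MT1X rose, with MT1G at 0.42 and MT1E at 0.45, and MT1E stood at 0.49 and 0.4995, just under the minimum, once the DMSO array of 24 h or the untreated one of 8 h was left out. Members of this family are close in sequence, and their probes can share signal.

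In the list of FGF and EGF family receptors and ligands, FGFR3 rose and NRG1 fell, and the other tested members were not called. Over all genes 0.351% rose and 0.272% fell. Signalling itself was not measured. FGFR3, a receptor tyrosine kinase for fibroblast growth factors, read 7.08, 7.65 and 7.26 on the log2 scale with OTX015 against 6.18 to 6.44 (median 6.32), a log2 fold change of 1.01 ± 0.090 (adjusted p = 2.24e-06). It was above the floor on 3 of 6 control arrays and on all OTX015 arrays, and its second tested probe had 0.28. NRG1, which encodes neuregulin, a ligand of ERBB3 and ERBB4, read 8.96, 8.52 and 8.82 against 9.27 to 9.45 (median 9.40), a log2 fold change of -0.61 ± 0.073 (adjusted p = 5.57e-05), or -0.499 without the OTX015 array of 8 h, just under the minimum. The receptors EGFR (-0.03), ERBB2 (-0.02) and ERBB3 (0.09) did not pass.

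Further genes among the 15 largest rises were EFR3B, RNF227, TUBB3, RHPN2, VASN and IRF7. EFR3B, which anchors a phosphatidylinositol kinase at the plasma membrane, was above the floor on all OTX015 arrays (6.75, 7.08 and 7.19) and on 0 of 6 controls (5.95 to 6.17), a rise of at least 1.57-fold against the floor. The probe entered testing through its OTX015 arrays alone, so its call is no support for a difference. Its second tested probe had a log2 fold change of 0.01. RNF227 rose by 0.80 ± 0.065 (adjusted p = 8.85e-07). RHPN2, which encodes the scaffold protein rhophilin, read 10.44, 10.21 and 10.31 against 9.36 to 9.70, a log2 fold change of 0.77 ± 0.065 (adjusted p = 1.34e-06). All of these had groups that did not overlap.

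TUBB3, the neuronal beta-tubulin isotype, read 10.73, 11.14 and 10.94 on the log2 scale with OTX015 against 9.96 to 10.29 (median 10.16), a log2 fold change of 0.80 ± 0.086 (adjusted p = 1.91e-05). It was the 1 of 13 tested tubulins that rose, against 0.351% of all genes. TUBB2A (0.36, adjusted p = 0.0029) and TUBB4B (0.35, adjusted p = 0.00276) missed the fold minimum, TUBB6 had 0.04, and the median of the 13 was 0.04. VAMP1, a vesicle fusion protein, had a log2 fold change of 0.28 (adjusted p = 0.0105). In the focal adhesion and actin list, RHPN2 and EPB41L5 (0.60 ± 0.059), a FERM-domain protein, rose, against 0.351% of all genes. TRIP6, a LIM protein of adhesion sites, fell by 0.50 ± 0.076 (adjusted p = 0.000573), against 0.272% of all genes. TRIP6 sat at the fold minimum, with -0.39 without the OTX015 array of 8 h and -0.49 without that of 24 h. It was also short of it without 1 of 3 control arrays, with -0.49 and -0.48 without the untreated and DMSO arrays of 8 h and -0.49 without the untreated one of 24 h.

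**Figure D3:**
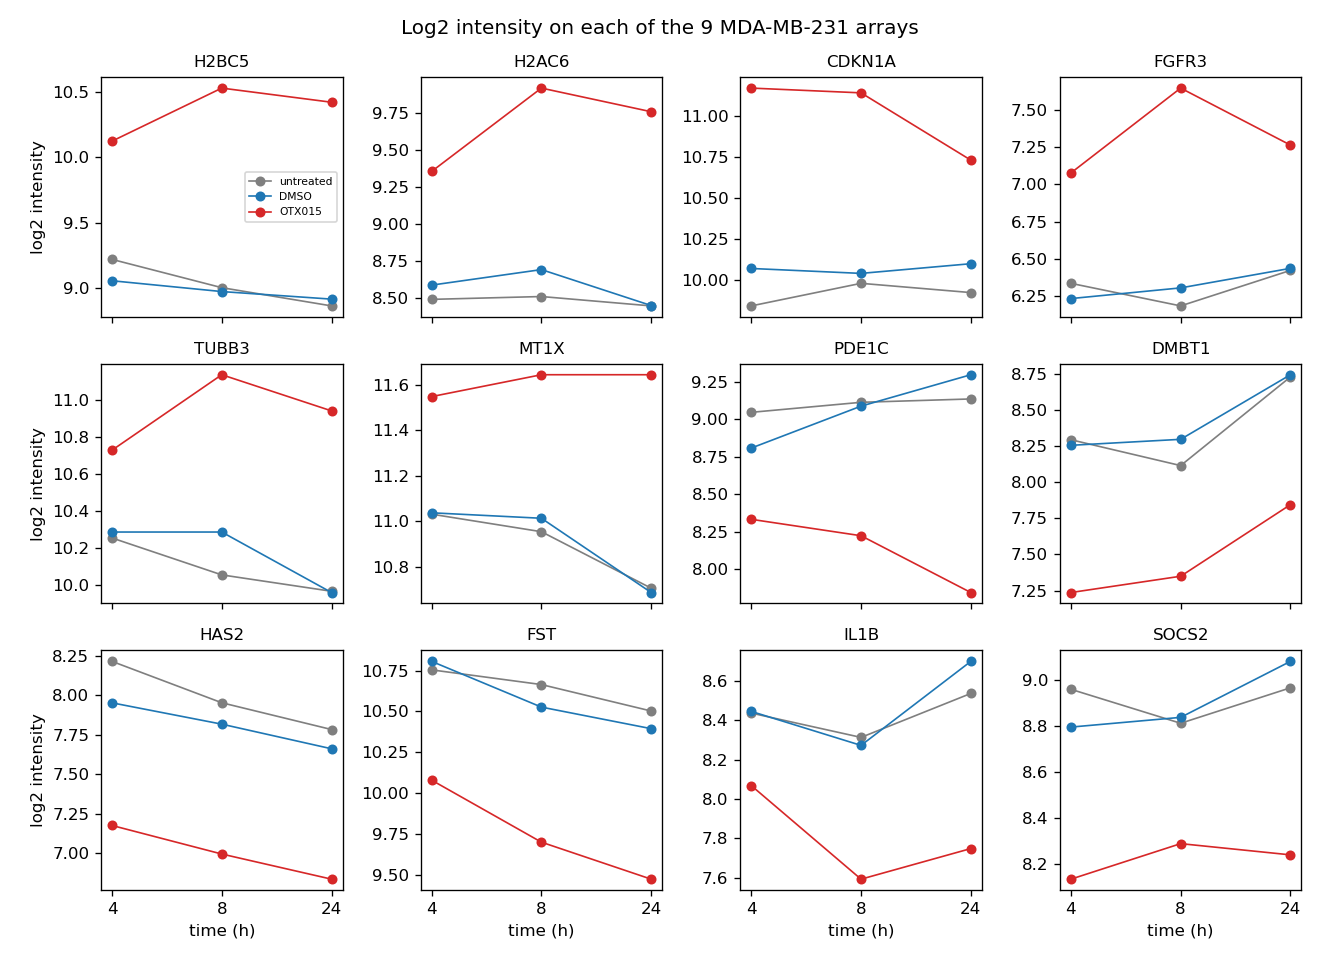
Log2 intensity of 12 genes (vertical axes, each with its own range) on the 9 arrays of MDA-MB-231 by time in h (horizontal axis). Red is OTX015, blue DMSO and grey untreated, 1 array per point. The red points lie outside the control range in every panel, above it for H2BC5, H2AC6, CDKN1A, FGFR3, TUBB3 and MT1X and below it for PDE1C, DMBT1, HAS2, FST, IL1B and SOCS2.

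The largest falls were those of PDE1C, DMBT1, HAS2, FST, NDP and RGS7. PDE1C, a calcium and calmodulin-dependent phosphodiesterase, read 8.33, 8.22 and 7.84 with OTX015 against 8.81 to 9.30 (median 9.10), a log2 fold change of -0.95 ± 0.101, or 1.93-fold lower (adjusted p = 1.9e-05). The difference from the controls of the same time was -0.59 at 4 h, -0.88 at 8 h and -1.37 at 24 h. DMBT1, which encodes a secreted scavenger receptor glycoprotein, read 7.24, 7.35 and 7.84 against 8.11 to 8.74 (median 8.29), a log2 fold change of -0.93 ± 0.064 (adjusted p = 2.16e-07). Treated and control levels were both highest at 24 h, and the response was -1.04, -0.86 and -0.89. RGS7, a regulator of G protein signalling, read 7.45, 7.11 and 7.03 against 7.84 to 8.21, a log2 fold change of -0.77 ± 0.061 (adjusted p = 7.56e-07).

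Of 47 tested matrix and protease genes 2 fell, HAS2 and ADAMTS6, and 0 rose, with a median of -0.08, against 0.272% of all genes that fell and 0.351% that rose. HAS2, the enzyme that synthesises hyaluronan at the cell surface, read 7.17, 6.99 and 6.83 on the log2 scale with OTX015 against 7.66 to 8.21 (median 7.88), a log2 fold change of -0.89 ± 0.068 (adjusted p = 6.04e-07). The response was already -0.91 at 4 h and stayed at -0.89, and its second tested probe had -0.33. ADAMTS6, a secreted metalloprotease, fell by 0.62 ± 0.071 (adjusted p = 4.29e-05), or -0.498 without the OTX015 array of 24 h. By adjusted p alone 12 of the 47 passed downward, HAS2 and ADAMTS6 among them, against 4.66% of all genes. The others included TIMP3 (-0.50), an inhibitor of metalloproteases, the proteoglycan VCAN (-0.48), the matrix glycoprotein TNC (-0.46) and the collagen crosslinking enzyme LOX (-0.29), named after their values were seen. All 3 OTX015 arrays lay below the controls for 9 of the 47, against 5.19% of all genes. Without the OTX015 array of 4 h, 5 matrix genes fell. CD44, the receptor of hyaluronan, had a log2 fold change of 0.04 (adjusted p = 0.765).

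In the TGF-beta, BMP and activin list 1 gene rose and 2 fell of 26, against 0.351% and 0.272% of all genes. FST, which encodes the activin antagonist follistatin, read 10.08, 9.70 and 9.47 on the log2 scale with OTX015 against 10.39 to 10.81 (median 10.60), a log2 fold change of -0.86 ± 0.067 (adjusted p = 6.8e-07). TGFB2, a TGF-beta ligand, read 7.66, 7.61 and 7.50 against 7.99 to 8.17, a log2 fold change of -0.51 ± 0.064 (adjusted p = 0.000103), which came to -0.49 when OTX015 at 8 h or untreated at 24 h was left out and to -0.45 without the OTX015 array of 24 h. VASN, a membrane protein that binds TGF-beta, read 8.54, 8.06 and 7.96 against 7.29 to 7.71, a log2 fold change of 0.72 ± 0.067 (adjusted p = 4.27e-06). The groups were apart for all 3. BAMBI, a decoy receptor of the pathway, had a log2 fold change of 0.49 and missed the minimum.

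The WNT list held 1 rise and 2 falls among 23 genes, where all tested genes had 0.351% and 0.272%. NDP, which encodes norrin, a ligand of FZD4, read 6.87, 7.31 and 7.45 on the log2 scale with OTX015 against 7.91 to 8.09 (median 7.99), a log2 fold change of -0.78 ± 0.079 (adjusted p = 9.67e-06). Its response was largest at 4 h, -1.08, and -0.54 at 24 h. TNFRSF19, a receptor of the TNF receptor family that is induced by WNT signalling, read 7.91, 8.32 and 8.22 against 7.39 to 7.50, a log2 fold change of 0.71 ± 0.071 (adjusted p = 9.65e-06). SHISA2, an endoplasmic reticulum protein known in the frog for holding back FZD and FGF receptors, fell by 0.55 ± 0.074 (adjusted p = 0.000204). It read 9.61, 8.94 and 8.45 against 8.87 to 10.07, and the groups overlapped because the controls also declined with time. Without a time term its adjusted p was 0.33, and without the OTX015 array of 8 h its log2 fold change was -0.47.

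Inflammatory cytokine genes fell in 3 of 27 tested members, with 0 rising, against 0.272% of all genes that fell and 0.351% that rose. IL1B read 8.07, 7.59 and 7.75 on the log2 scale with OTX015 against 8.27 to 8.70 (median 8.44), a log2 fold change of -0.65 ± 0.078 (adjusted p = 6.48e-05). CXCL8, the neutrophil chemoattractant interleukin 8, read 9.62, 9.47 and 9.42 against 9.91 to 10.52 (median 10.06), a log2 fold change of -0.62 ± 0.092 (adjusted p = 0.000526). IL24, a cytokine of the IL-10 family, read 6.93, 6.78 and 6.69 against 7.23 to 7.58 (median 7.42), a log2 fold change of -0.61 ± 0.062 (adjusted p = 9.96e-06), and its second tested probe had -0.13. All 3 genes had OTX015 arrays below every control. The response of CXCL8 was -0.38 at 4 h and -0.94 at 24 h, and without the OTX015 array of 24 h its log2 fold change was -0.46. PTGS2 (-0.33) and TNFAIP3 (-0.28) passed downward by adjusted p alone and NFKBIZ (0.41) upward, while IL6 (-0.14), CXCL1 (-0.01) and ICAM1 (0.00) did not pass, and the median of the list was -0.08.

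Cytokine receptors and their feedback regulators included 2 falls and 0 rises among 29 genes of the JAK-STAT list, against 0.272% of all genes that fell. SOCS2, a feedback inhibitor of STAT5 signalling, read 8.13, 8.29 and 8.24 on the log2 scale with OTX015 against 8.80 to 9.08 (median 8.90), a log2 fold change of -0.69 ± 0.067 (adjusted p = 6.41e-06). IL7R, the receptor of interleukin 7, read 6.82, 6.59 and 6.44 against 6.98 to 7.41 (median 7.20), a log2 fold change of -0.56 ± 0.084 (adjusted p = 0.000528). Both were below the controls at each time, and the lowest IL7R value lay close to the floor, which ran from 6.33 to 6.42 on the OTX015 arrays. In the interferon and antigen presentation list, IRF7, a transcription factor that switches on type I interferon genes, was the 1 of 45 that rose (0.351% of all genes), with 0 that fell. It read 8.16, 8.81 and 8.82 against 7.77 to 8.15 (median 7.84), a log2 fold change of 0.72 ± 0.098 (adjusted p = 0.000227). The top control value, 8.15, was that of the DMSO array of 24 h. Interferon-induced genes went both ways by adjusted p, with OAS2 (-0.36) and IFI44 (-0.34) lower and IFI6 (0.28) and ISG15 (0.27) higher, and the list median was -0.05.

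Immediate early genes of the AP-1 list had 1 rise among 24 (0.351% of all genes) and a median of 0.17. ZFP36, which encodes an mRNA decay factor, rose by 0.51 ± 0.104 (adjusted p = 0.00566), with 9.24, 9.55 and 9.51 against 8.60 to 9.26, so the 4 h array fell inside the control range. The call was lost without the OTX015 array of 8 h (log2 fold change 0.34) or of 24 h (0.47) and without the untreated array of 8 h (0.45) or of 24 h (0.47). CCN2 (0.42), IER2 (0.39), EGR1 (0.38) and ATF3 (0.36) passed upward by adjusted p alone, JUN (-0.25) downward, and FOS (0.28, adjusted p = 0.18) did not pass.

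Metabolic and stress lists gave few calls. NDRG1, a gene induced by hypoxia and differentiation, read 9.01, 9.24 and 9.48 on the log2 scale with OTX015 against 8.65 to 8.85, a log2 fold change of 0.53 ± 0.076 (adjusted p = 0.000413), and 0.42 without the OTX015 array of 24 h or 0.48 without the untreated array of that time. It was the 1 of 29 hypoxia-induced genes that rose, against 0.351% of all genes, and the list median was 0.11. By adjusted p alone 8 of the 29 passed upward, against 4.56% of all genes, and 4 downward, against 4.66%. Those upward included TXNIP (0.49), an inhibitor of thioredoxin and glucose uptake, and ANGPTL4 (0.45), a secreted inhibitor of lipoprotein lipase. Of 26 glycolysis genes, 0 were called, and PFKFB3 (0.17, adjusted p = 0.0959), PFKFB4 (0.10) and PGK1 (-0.05) did not pass. The respiratory chain had 0 calls among 83 genes and a median of 0.01, DLAT, the acetyltransferase subunit of pyruvate dehydrogenase, had a log2 fold change of -0.16 (adjusted p = 0.112), and the mitochondrial ribosome genes MRPL46 (-0.16) and MRPS12 (-0.17) did not pass. DCXR, a carbonyl reductase, was the 1 rise among 19 NRF2 targets (0.351% of all genes), with 8.86, 8.82 and 9.12 against 8.07 to 8.55, a log2 fold change of 0.63 ± 0.090 (adjusted p = 0.000351), or 0.44 without the OTX015 array of 24 h. Lists for heat shock (14 genes), the unfolded protein response (33), autophagy and lysosome (40), cholesterol and fatty acid synthesis (28), the proteasome (33), DNA repair (31), the BCL2 family (22) and histone deacetylases (14) had 0 calls each. Over all genes 0.351% rose and 0.272% fell, so 0 calls in lists of this size lies near that share. By adjusted p alone, members of the heat shock, cholesterol, BCL2 and deacetylase lists passed upward only. They were HSPA1B (0.38), DNAJB1 (0.32), IDI1 (0.36), INSIG1 (0.29), LSS (0.23), BCL2L12 (0.21) and SIRT1 (0.34), against 4.56% of all genes.

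Called genes for factors of lineage and chromatin included HES6, SOX21, SPDEF and JADE2, where 0.351% of all genes rose and 0.272% fell. Most tested members of the lineage list were not called. HES6, a helix-loop-helix protein that opposes HES1, rose by 0.67 ± 0.094 (adjusted p = 0.000277), with 7.66, 8.18 and 7.81 against a control median of 7.21 and a highest control of 7.38, and had 0.48 without the OTX015 array of 8 h. SOX21, a SOX family repressor, fell by 0.63 ± 0.072 (adjusted p = 4.29e-05), with 6.73, 7.04 and 6.92 against 7.42 to 7.64. SPDEF, an epithelial ETS factor, fell by 0.60 ± 0.111 (adjusted p = 0.00305), but read 7.76, 6.81 and 7.02 against 7.33 to 8.07, so the groups overlapped at 4 h, and it had -0.34 without the OTX015 array of 8 h. JADE2, a PHD-finger partner of histone acetyltransferases, fell by 0.53 ± 0.083 (adjusted p = 0.00075), most at 4 h (-0.79) and least at 24 h (-0.20), and had -0.40 without the OTX015 array of 4 h and -0.496 without that of 8 h. Of the stem cell markers, CD24 had a log2 fold change of 0.48 (adjusted p = 0.000535), with OTX015 arrays at 9.90, 10.02 and 10.02 above controls of 9.34 to 9.62, and passed at 0.55 without the OTX015 array of 4 h and at 0.50 without the untreated array of 4 h. EPCAM (-0.16) and PROM1 (-0.05) did not pass, and MSI1, NANOG, POU5F1 and COL9A2 were not tested for low signal.

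The remaining falls named by the rule were RCAN1, an inhibitor of calcineurin, and FAM24B. RCAN1 read 8.34, 8.18 and 8.26 on the log2 scale with OTX015 against 8.84 to 9.02 (median 8.94), a log2 fold change of -0.68 ± 0.064 (adjusted p = 4.98e-06). FAM24B read 9.82, 9.59 and 9.45 against 10.14 to 10.58, a log2 fold change of -0.71 ± 0.089 (adjusted p = 0.00011), and its second tested probe had -0.09. The groups were apart for both. Over the 29 genes with a call and more than 1 tested probe, all probes had the same sign in 28, and all were called in 8. Differences between probes of a gene, as for FGFR3, EFR3B, HAS2, IL24 and FAM24B, were not traced to transcripts.

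**Figure D4:**
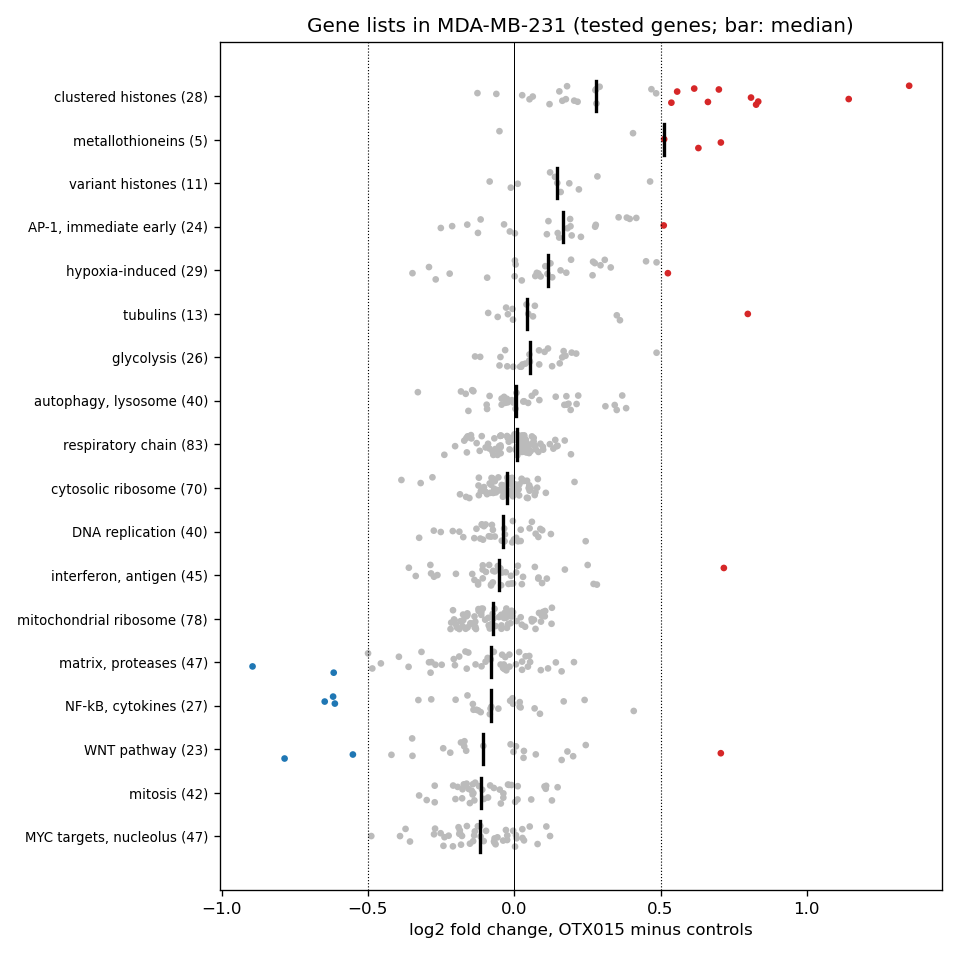
Log2 fold change of the tested genes of 18 lists in MDA-MB-231 (horizontal axis), 1 point per gene, with the number of tested genes in brackets. Red points rose, blue points fell, black bars are list medians, and dotted lines mark 0.5 in each direction. Clustered histones (median 0.28) and metallothioneins (0.51) lie to the right, and the other medians lie between -0.12 and 0.17.

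For the 57 probes that rose, the median response, that is OTX015 minus the mean of both controls of the same time, was 0.52 at 4 h, 0.71 at 8 h and 0.72 at 24 h. For the 43 that fell it was -0.48, -0.63 and -0.69. A response of at least 0.5 was already present at 4 h in 33 of the 57, and of at most -0.5 in 20 of the 43. The largest response was at 4 h in 10, at 8 h in 23 and at 24 h in 24 of the probes that rose, and at 4 h in 8, at 8 h in 9 and at 24 h in 26 of those that fell. These times describe probes chosen for their mean over the same arrays.

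**Figure D5:**
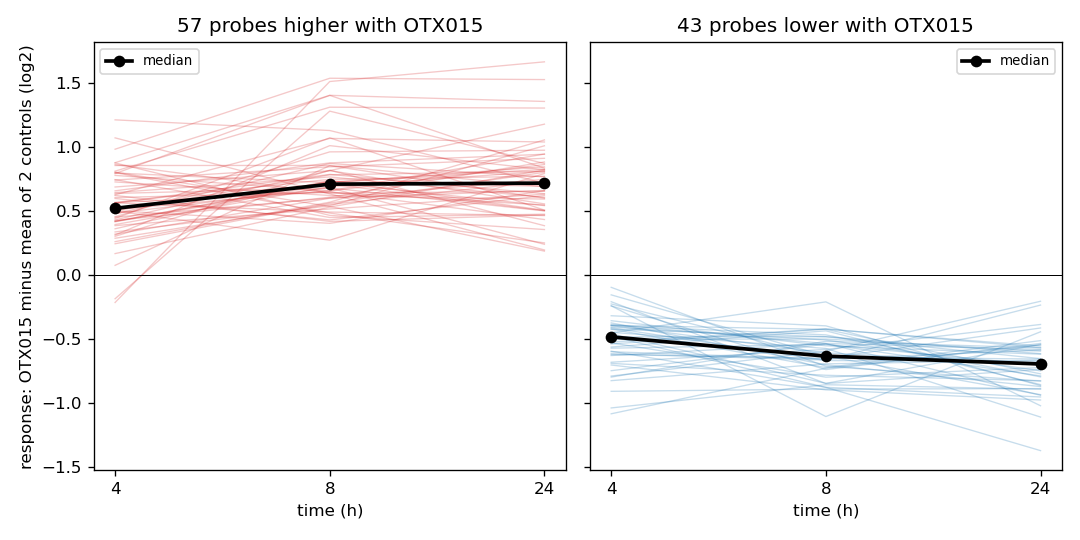
Response to OTX015 (log2 intensity minus the mean of both control arrays of that time, vertical axis) at 4, 8 and 24 h for the 57 probes that rose (left) and the 43 that fell (right). Thin lines are probes and thick black lines medians, which run from 0.52 to 0.72 and from -0.48 to -0.69.

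A test of the response at 24 h against that at 4 h, in which the lone OTX015 array of each time is assumed to vary like the controls (3 residual degrees of freedom), called 4 of 20217 probes (0.0198%), 3 with a more positive response at 24 h and 1 with a more negative one. The only one with a symbol was CYSRT1, named because it is the only one, with responses of -0.23, 0.32 and 0.96 and a difference of 1.19 ± 0.144 (adjusted p = 0.0135). An unadjusted p under 0.05 was found for 1620 probes, the 4 included. The opposite courses of CDKN1A and MT1X, with differences of -0.49 (adjusted p = 0.466) and 0.43 (adjusted p = 0.448) between 24 and 4 h, did not pass in this test.

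DMSO and untreated arrays were compared to see what pooling them leaves out. This called 0 probes with limma (0%), with a lowest adjusted p of 0.153 and 511 probes at an unadjusted p under 0.05. Over the 100 probes called for OTX015, the absolute difference between DMSO and untreated had a median of 0.0531 and was at most 0.257. Against DMSO alone, 6 of the genes named above missed the fold minimum, with log2 fold changes of 0.48 for NDRG1, 0.49 for MT1E, 0.48 for ZFP36, -0.49 for TRIP6, -0.47 for SHISA2 and -0.46 for IL7R.

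The response of MDA-MB-231 was compared with that of MDA-MB-468 over all 18 arrays, with the time point within each line as a block (10 residual degrees of freedom). Since the lines received 75 and 650 nM, line and concentration cannot be told apart. Of the tested probes 739 differed (3.66%), and 56 of the 100 called probes were among them. Of the probes that rose in MDA-MB-231, 23 had a smaller rise there and 2 a larger one. CDKN1A had log2 fold changes of 1.02 here and 2.28 in MDA-MB-468, a difference of -1.26 (adjusted p = 0.00021), and TUBB3 had 0.80 and 1.99, a difference of -1.19 (adjusted p = 0.0072). RHPN2 and TNFRSF19 went the other way, with -0.16 and 0.00 in MDA-MB-468 and differences of 0.93 (adjusted p = 0.00014) and 0.71 (adjusted p = 0.0014), though TNFRSF19 was above the floor on 1 of the 9 MDA-MB-468 arrays. Without the 8 h arrays of both lines the differences of CDKN1A and RHPN2 still passed, and those of TUBB3 (adjusted p = 0.0659) and TNFRSF19 (adjusted p = 0.0536) did not.

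Over the 28 clustered histone genes the median response was 0.28 here and 0.75 in MDA-MB-468. Among the probes that fell, 28 fell more in MDA-MB-231 and 3 less, but 18 of the 43 were below the floor on every MDA-MB-468 array, so that no response was measurable there. These included PDE1C, DMBT1, NDP, RGS7, IL1B, IL24, NRG1, SOX21, ADAMTS6 and SHISA2. Where both lines expressed the gene, RCAN1 fell by 0.68 here and had a log2 fold change of 0.44 in MDA-MB-468 (difference -1.12, adjusted p = 0.014). IL7R had -0.56 and -2.13 (difference 1.56, adjusted p = 0.0044). Without the 8 h arrays of both lines the difference of IL7R passed and that of RCAN1 did not (adjusted p = 0.079). MYC had 0.07 and -0.26, a difference of 0.33 that did not pass (adjusted p = 0.11). The MDA-MB-468 array of OTX015 at 8 h had the lowest mean intensity, 173.7. Without that array alone 838 probes differed, and without all 8 h arrays of both lines 274.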

How the data were processed

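Per the labels, total RNA of both lines was amplified, biotin-labelled and hybridized on Illumina HumanHT-12 v4 arrays. The authors deposited scanner intensity values per probe from GenomeStudio (linear, 55.19 to 17270), and a table of log2 values normalized between arrays (6.288 to 14.17), whose further steps no source used here states. Detection p-values, control probes and slide numbers were not used here.

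The intensities of all 18 arrays were corrected with limma's normexp model (offset 50), quantile-normalized and log2-transformed (limma 3.58.1, R 4.3.3). Each array's floor was set at percentile 95 of 457 probes for olfactory receptors, which these cells are not known to use. The model was fitted with lmFit and eBayes to the 9 MDA-MB-231 arrays, with time point and arm as terms, and p-values were adjusted by Benjamini-Hochberg over all tested probes. The thresholds are those of the study's methods, with the logarithm taken as base 2. Probes were named through the platform annotation, with 30113 probes carrying 1 symbol, 8 several and 17110 none, and symbols were updated through RefSeq (30074 found). No coordinates of probes were used.

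A list counts 1 probe per gene, that with the highest mean intensity. Named genes were the 15 largest rises and 15 largest falls among called genes changed the same way at all 3 times, up to 4 called members of each of 47 lists, and the genes the study names. The comparison, lists and rule were chosen with earlier results of these data known. The fit was tested on simulated data. Alternatives varied the background correction, scaling, probe filter, controls, time term, variance prior, array weights, fold minimum and arrays left out. Where no array of a group was above the floor, the fold is a lower bound. Figures were drawn with matplotlib 3.10.9. TUBB4Q was not analysed here, and some other results are not reported here.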

Additional observations from a re-analysis of the deposited data

Results flagged for a closer look

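The control arrays were checked over 66 measures, those of the 63 named genes and the mean intensity, floor and number of probes above it. They held 1 value far from the other 5: the DMSO array of 24 h read 8.15 for IRF7 on the log2 scale. Chance gives such a value in about 1 of 20 groups.

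Differences between 24 h and 4 h passed for 4 probes, with 1.19 for CYSRT1 and 1.88, -0.972 and 0.971 for 3 probes without a symbol.

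The response of MDA-MB-231 (75 nM) minus that of MDA-MB-468 (650 nM) passed for 42 of the 63 named genes, against 3.66% of all tested probes. The named genes were picked for a change in MDA-MB-231 or because the study names them, so they are no unselected sample of the probes. The values below are these differences on the log2 scale. Line and concentration cannot be told apart, and 36 of the 42 still passed without the MDA-MB-468 array of OTX015 at 8 h and 17 without the 8 h arrays of both lines, all 42 with the same sign. Of histone genes, the difference was -0.95 for H2BC5, -1.32 for H2AC6, -1.28 for H2BC21, -1.43 for H2AC18, -0.86 for H2BC12 and -1.68 for H2BC11. Of other genes that rose in MDA-MB-231, it was -1.26 for CDKN1A, -0.82 for FGFR3, -1.26 for EFR3B, -1.19 for TUBB3, -1.22 for IRF7, -0.60 for HES6, -0.73 for SERTAD1, -0.66 for BRD2 and -1.05 for ZFP36, and on the positive side 0.93 for RHPN2 and 0.71 for TNFRSF19. The MDA-MB-231 controls of EFR3B were below the floor, so its response there is known as a lower bound only. Of genes not called in MDA-MB-231, it was 0.51 for CD24, -0.84 for TUBB2A, -0.78 for TUBB4B, -0.71 for VAMP1, -0.64 for PFKFB3, -0.55 for TUBB6, 0.72 for CD44 and 0.58 for PROM1.

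Of genes that fell, the difference was positive for JADE2 (0.51), IL7R (1.56) and SPDEF (1.33), that is a smaller fall in MDA-MB-231. It was negative for RCAN1 (-1.12), SOCS2 (-0.53), FAM24B (-0.63) and HAS2 (-0.86). Below the floor on every MDA-MB-468 array were SHISA2 (-0.56), IL24 (-0.65), NRG1 (-0.57), ADAMTS6 (-0.66), SOX21 (-0.73), IL1B (-0.68), RGS7 (-0.79), NDP (-0.85), DMBT1 (-0.98) and PDE1C (-0.89).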

How the results depend on the processing

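The cause of the shifts below was not tested. The counts as reported were 57 higher, 43 lower, 0 for DMSO against untreated, 4 for 24 h against 4 h and 739 for the lines. Without background correction 24 probes fell and 19 differed in time. An offset of 16 gave 112 higher, 101 lower and 0 in time. The deposited log2 table gave 37 higher, 17 lower and 21 in time. Median scaling gave 123 higher, 24 lower and 0 in time. The time count was 7 with the 9 arrays normalized alone, 19 with cyclic loess, 14 without a filter and 7 with the floor on all 9 arrays. Without a fold minimum 747 rose, 727 fell and 1329 differed between lines. Leaving out 1 array or time point gave 55 to 95 higher, 35 to 83 lower, 0 to 1 for DMSO, 0 to 9 in time and 274 to 978 for the lines, the lowest without 8 h and the highest without 4 h in both lines, a choice made after seeing the data.

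All 100 called probes kept their sign in every setting in which they were tested. Of them, 54 were called in the deposited table and 71 without the OTX015 array of 24 h. Of 47 named genes with a call, 28 were called in every setting with a fold minimum, 15 lost the call without some array and 14 in another setting. Arrays were matched by time point in the fit, and without that time term 49 rose and 38 fell. A slide term was not run.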
